A study of Homo sapiens with 4 samples.

Results

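The 8 genes described here, LIN28A, LIN28B, L1TD1, IGF2BP1, IGF2BP2, IGF2BP3, HMGA1 and HMGA2, form the LIN28 and let-7 axis with oncofetal RNA-binding proteins and the HMGA chromatin proteins. They were chosen by symbol, and all 8 were found among the 19775 genes of the deposited table. The study measured poly(A) RNA of H1, an established line of human embryonic stem cells, labelled wild type. Every culture was kept in the defined medium E8, whose growth factors are FGF2, TGFβ and insulin. At 12 h there are 4 labelled samples, of which 2 had the medium alone and 2 had XMD892, an inhibitor of the kinase ERK5, added at 1 µM. The columns of the table whose names match these labels are the 2 of the XMD892 group, called replicate 1 and replicate 2 below. A further column named for XMD at 12 h matched no labelled sample and was not used. The untreated columns are named for a culture time that differs from the 12 h of the untreated samples' labels, so the E8 group was not analysed here and no effect of XMD892 on these genes is given. Whether the pair of libraries stems from separate cultures is not in the labels, and their spread may be technical.

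LIN28A and LIN28B are RNA-binding proteins that hold back the maturation of the let-7 microRNAs, which in turn repress growth genes. LIN28 proteins bind the terminal loop of let-7 precursors, where the zinc knuckles read the letters GGAG, and LIN28A recruits terminal uridylyl transferases that mark the precursor for decay. The IGF2BP proteins bind mRNAs in the cytoplasm and protect them from decay. The HMGA proteins bend AT-rich DNA through AT hooks. These genes are active in embryonic cells, most fall silent in adult tissues and many return in tumours. Human embryonic stem cells are known for abundant LIN28A and for L1TD1, an RNA-binding protein derived from a LINE-1 open reading frame.

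The let-7 sequences are shown first because they carry the link between the genes. RefSeq's table for GRCh38.p14 held 9 different mature 5′ arms of let-7 and miR-98 from 12 loci, and all shared the same seed. Capitals mark the seed, bases 2 to 8. The 4 below differ from each other only outside it.
hsa-let-7a-5p: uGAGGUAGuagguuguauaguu
hsa-let-7d-5p: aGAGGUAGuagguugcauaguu
hsa-let-7g-5p: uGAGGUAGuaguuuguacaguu
hsa-miR-98-5p: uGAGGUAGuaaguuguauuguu

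In 11 of the 12 let-7 and miR-98 hairpins both arms were annotated, and the stretch between the arms could be searched for GGAG on the transcribed strand. It was present in 8 hairpins and its letters were not found in 3, those of MIRLET7A3, MIRLET7B and MIR98. Among all 739 hairpins of the table with both arms annotated, 8.12% held GGAG in that stretch, whatever its length. The hairpins below show the contrast, with GGAG in capitals. MIRLET7G lies at chr3:52268278-52268361 on the minus strand, MIRLET7E at chr19:51692786-51692864 on the plus strand and MIRLET7B at chr22:46113686-46113768 on the plus strand. MIRLET7E held the letters at 2 places.
MIRLET7G: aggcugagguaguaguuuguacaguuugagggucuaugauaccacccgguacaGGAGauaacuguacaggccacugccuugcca
MIRLET7E: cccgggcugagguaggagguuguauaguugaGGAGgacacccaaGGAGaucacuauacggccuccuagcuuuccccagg
MIRLET7B: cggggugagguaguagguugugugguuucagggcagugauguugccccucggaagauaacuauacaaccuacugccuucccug

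Mature let-7 carries no poly(A) tail and was not measured by these libraries. Rows named for let-7 loci held very few reads, with 12 and 6 for MIRLET7D in replicates 1 and 2 and 5 and 3 for MIRLET7I. The host transcripts MIRLET7BHG and MIR100HG stood at 8 and 5 reads and at 6 and 3 reads. MIRLET7D and MIRLET7I were named after their values were seen. These few reads do not give the level of let-7.

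Most of the 8 genes hold matches to the let-7 seed in their own 3′ UTRs. The match searched was CTACCTC, the complement of bases 2 to 8, on the transcribed strand of GENCODE release 29 transcripts (GRCh38). In the longest annotated 3′ UTR of each gene, 12 matches were found in 6 of the 8 genes. The longest 3′ UTR of HMGA2, at 7421 nt, belongs to a transcript with another end and held no match. Counted over any annotated 3′ UTR, a choice made after seeing the data, there were 16 matches in 7 of the 8 genes. LIN28B, IGF2BP1 and HMGA2 held 4 each, LIN28A, IGF2BP2, IGF2BP3 and HMGA1 held 1 each, and L1TD1 held none in its 956 nt. Over 19146 protein-coding genes with a 3′ UTR, 10.5% held at least 1 match on that count and 14 genes (0.0731%) held at least 4. Length alone raises the chance of a match, so each gene was also set beside genes with a 3′ UTR within 10% of its length. For every gene, in this comparison, the 3′ UTR was that of the transcript with the most matches, a choice also made after seeing the data.

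LIN28B's 3′ UTR of 4549 nt held 4 matches, a number that 1 of 691 genes of like length reached. IGF2BP1's, at 6206 nt, held 4, which 2 of 384 such genes reached. The 3003-nt 3′ UTR of HMGA2 held 4, which 0 of 1074 such genes reached, whereas its longest 3′ UTR held 0. For the genes with 1 match, the share of genes of like length with at least 1 was 17.5% for LIN28A, 11.7% for IGF2BP2, 13.2% for IGF2BP3 and 8.98% for HMGA1. A match describes the letters and is not a measured site of repression.

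The first match after the stop codon is shown for each of the 7 genes, since it lets the flanks be compared around a shared core. Capitals mark the 7 letters of the match, and the sequence is read along the transcript.
LIN28A, chr1:26427349-26427370, plus strand: cacagcctattgaaCTACCTCa
LIN28B, chr6:105078813-105078834, plus strand: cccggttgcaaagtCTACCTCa
IGF2BP1, chr17:49051062-49051083, plus strand: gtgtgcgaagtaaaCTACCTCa
IGF2BP2, chr3:185644220-185644241, minus strand: acacacagaagaagCTACCTCa
IGF2BP3, chr7:23311795-23311816, minus strand: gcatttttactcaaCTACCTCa
HMGA1, chr6:34245830-34245851, plus strand: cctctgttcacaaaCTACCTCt
HMGA2, chr12:65963299-65963320, plus strand: ccaacgttcgatttCTACCTCa

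In 6 of these 7 the match was followed by A, the form that argonaute proteins are known to bind best. HMGA1 was the exception among these 7, with T after its match. Over all 16 matches of the 7 genes, 9 were followed by A. No share over the matches of other genes is given here. The first match of HMGA2 began 21 nt after the stop codon and that of LIN28B 44 nt after it. The first match of IGF2BP1 began 1632 nt after the stop codon.

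**Figure D1:**
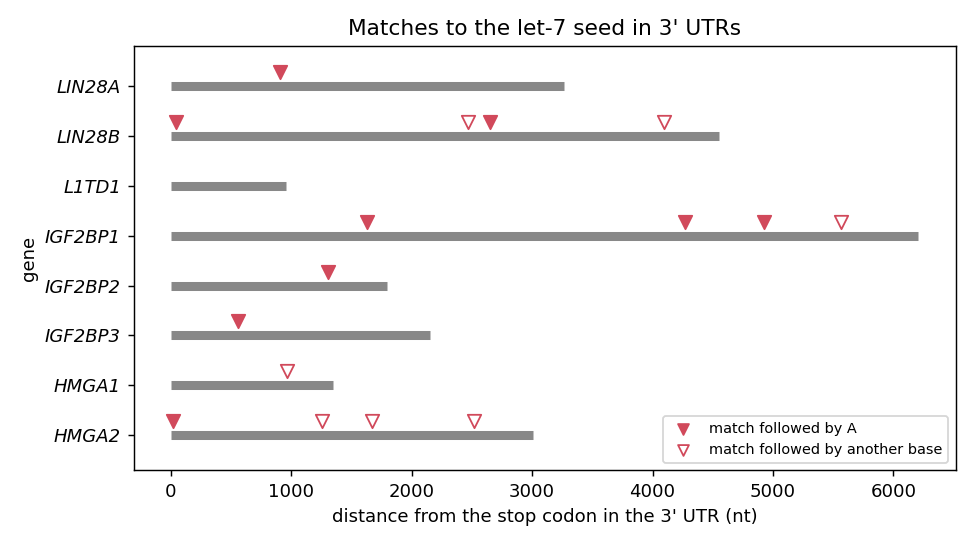
Annotated 3′ UTRs (grey bars, horizontal axis in nt from the stop codon) of the 8 genes, each from the transcript with the most matches, with triangles at matches to the let-7 seed, filled where the next base is A. LIN28B, IGF2BP1 and HMGA2 carry 4 triangles each, and L1TD1 carries none.

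Replicate 1 held 18528689 recovered reads and replicate 2 held 20217648. The labelled cell type was checked against marker lists. All 8 pluripotency markers, LIN28A among them, reached 1 RPKM (reads per kilobase of merged exons, scaled to a common total of recovered reads) in both libraries, with a summed level of 1804 and 2372 RPKM. Of 8 fibroblast markers 4 were listed (COL1A1, COL1A2, TAGLN, THY1), with a sum of 110 RPKM in replicate 1 and 74.3 RPKM in replicate 2. Of 6 neural markers 4 were listed, summing to 4.33 and 1.81 RPKM. Of 5 endoderm markers 1 was listed, of 4 mesoderm markers 4, and of 5 trophoblast and amnion markers 2. The mesoderm gene T had no length and so no RPKM, and none of the others reached 1 RPKM in both libraries. MIXL1, a mesoderm marker, stood at 0.825 and 2.54 RPKM on 31 and 104 reads. The neural sum was higher in replicate 1. The pluripotency sum was carried by POU5F1: without it the sum was 1070.3 RPKM in replicate 1 and 942 RPKM in replicate 2, and 4 of the 8 markers were higher in each library. LIN28A, also among the genes described here, made up 536 and 402 RPKM of the sum without POU5F1. That sum is therefore not independent of the genes described. The fibroblast markers split, with THY1, which pluripotent cells also carry, at 33.7 and 64.2 RPKM. TAGLN stood at 62.2 and 5.34 RPKM and COL1A1 at 7.85 and 0.987 RPKM, and the sum without THY1 was 76.1 and 10.2 RPKM. The fibroblast genes COL3A1, POSTN, LUM and DCN, the neural genes PAX6 and NEUROD1, and the endoderm genes SOX17, FOXA2, GATA6 and AFP were not listed.

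LIN28A, which blocks let-7 maturation in the cytoplasm, lies at chr1:26410778-26429722 on the plus strand. It stood at 536 RPKM in replicate 1 and 402 RPKM in replicate 2, a mean of 469 ± 95.01 (SD, n = 2). Counted from the highest level, it ranked 44 and 76 among the 19283 genes with a length. LIN28B, its paralog, which can act in the nucleus, lies at chr6:104936616-105083332 on the plus strand. LIN28B stood at 22.97 and 18.96 RPKM, a mean of 20.96 ± 2.83. LIN28A was thus 23.4-fold above LIN28B in replicate 1 and 21.2-fold above it in replicate 2, and it made up 95.7% ± 0.282 of the LIN28 transcripts per length. Both paralogs were higher in replicate 1. An antisense transcript, LIN28B-AS1, overlaps the start of LIN28B and held 11 and 28 reads against 2554 and 2301 for LIN28B.

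L1TD1 lies at chr1:62194831-62212328 on the plus strand. It stood at 198 RPKM in replicate 1 and 212 RPKM in replicate 2, a mean of 205 ± 9.44 (SD, n = 2). Only 0.752% of the genes with a length had a higher mean level. L1TD1 was the third most abundant of the 8 genes, between LIN28A and IGF2BP1, and its 2 libraries overlapped neither neighbour.

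The 3 IGF2BP genes lay close together and below LIN28A. IGF2BP1, which stabilises MYC and other mRNAs, lies at chr17:48997412-49055650 on the plus strand and stood at 61.6 and 36.04 RPKM in replicates 1 and 2, a mean of 48.8 ± 18.1 (SD, n = 2). IGF2BP2, which is also expressed in some adult tissues, lies at chr3:185643739-185825056 on the minus strand and stood at 37.9 and 33.1 RPKM, a mean of 35.5 ± 3.39. IGF2BP3, a marker of many carcinomas, lies at chr7:23310209-23470467 on the minus strand and stood at 18.96 and 24.2 RPKM, a mean of 21.6 ± 3.69. IGF2BP1 had the widest spread of the 8 genes relative to its mean.

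The make-up of the family differed between the libraries. IGF2BP1 took 52.03% of the IGF2BP transcripts per length in replicate 1 and 38.6% in replicate 2. IGF2BP2 took 31.96% and 35.4%, and IGF2BP3 took 16.005% and 25.9%. The level of IGF2BP1 was higher in replicate 1 and that of IGF2BP3 higher in replicate 2, while IGF2BP2 differed little. The order within the family rests on the length used: with the longest coding transcript of each gene in place of merged exons, IGF2BP1 stood at 67.9 and 39.7 RPKM, IGF2BP2 at 48.6 and 42.5 RPKM and IGF2BP3 at 37.97 and 48.4 RPKM. On that scale IGF2BP3 was the highest of the 3 in replicate 2, so the 3 levels are not separated beyond their spread. The gene MALSU1 overlaps the 3′ end of IGF2BP3 on the other strand with 607 and 737 reads, against 2990 and 4160 for IGF2BP3. Without a stated strand setting of the counting, reads in the shared stretch cannot be assigned.

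HMGA1, an abundant architectural chromatin protein of stem cells, lies at chr6:34236873-34246231 on the plus strand. It stood at 1581 RPKM in replicate 1 and 1522 RPKM in replicate 2, a mean of 1551 ± 42.04 (SD, n = 2), and ranked 15 and 19 among the 19283 genes. HMGA1 took 0.368% and 0.354% of all recovered reads. Of 8 HMGA1 pseudogenes in the annotation 2 were listed, with 7 and 8 reads together, so their rows hold little, although reads of near-identical copies can be assigned to either. HMGA2, the classic let-7 target of the family, lies at chr12:65824131-65966295 on the plus strand. HMGA2 stood at 18.2 and 16.97 RPKM, a mean of 17.6 ± 0.888. HMGA1 was 86.7-fold above HMGA2 in replicate 1 and 89.7-fold in replicate 2. That ratio depends on length, because the merged exons of HMGA2 span 15403 nt over several transcript ends. With the longest coding transcript of each gene it was 49.1-fold and 50.8-fold.

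By mean level the order was HMGA1, LIN28A, L1TD1, IGF2BP1, IGF2BP2, IGF2BP3, LIN28B and HMGA2. Neighbours whose libraries overlapped were IGF2BP1 with IGF2BP2 and IGF2BP3 with LIN28B. LIN28B and HMGA2 were apart by little, 18.96 RPKM against 18.2 RPKM at their nearest. With the longest coding transcript as length, HMGA2 ranked above LIN28B, at 33.5 ± 1.69 against 22.9 ± 3.09 RPKM (SD, n = 2), and IGF2BP3 no longer overlapped LIN28B. The top 3 places did not change between the 2 length choices. The median of the 8 means was 42.2 RPKM, while that of all genes with a length was 2.31 RPKM.

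**Figure D2:**
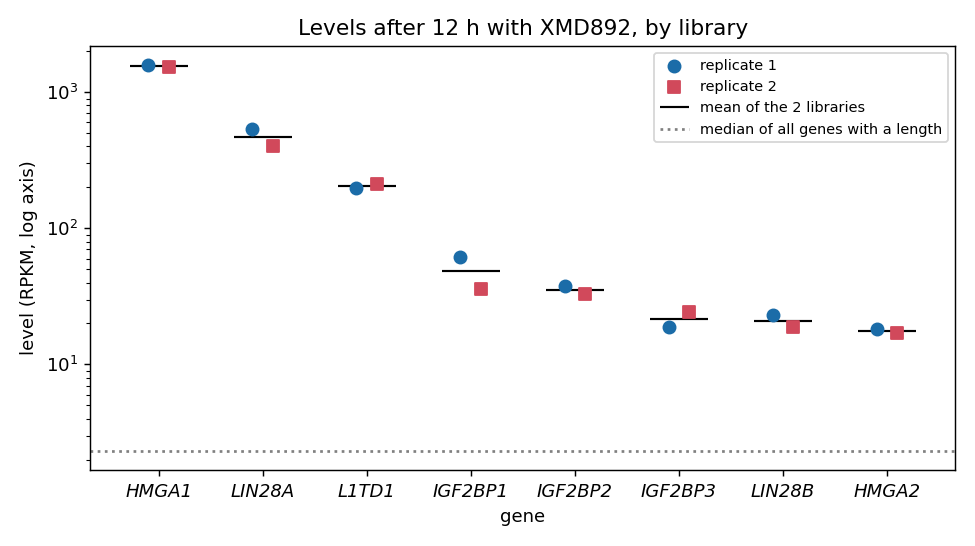
Levels of the 8 genes (vertical axis, RPKM on a log scale) in replicate 1 (circles) and replicate 2 (squares), with bars at the mean and a dotted line at the median of all genes with a length, 2.31 RPKM. HMGA1, LIN28A and L1TD1 stand apart from the other 5, which lie between 16.97 and 61.6 RPKM.

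The libraries were then compared with each other, as replicate 2 minus replicate 1 on log2(normalized count + 1), since their spread limits what a comparison with this group can resolve. There is 1 library on each side, so no test was made. None of the 8 genes differed by 2-fold or more, against 10.9% of the 16148 genes tested, those whose mean normalized count was 10 or more (4.76% higher in replicate 2 and 6.14% higher in replicate 1). The gap is smaller in abundant genes: of the 1615 genes at or above LIN28B, the lowest of the 8 by normalized count, 1.8% differed by 2-fold. The 8 genes all passed the minimum of 10.

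IGF2BP1 had the widest gap of the 8. It held 10404 reads in replicate 1 and 6638 in replicate 2, or 11168 and 7005 normalized counts, which is 1.59-fold higher in replicate 1. The log2 difference was -0.67, with a 95% counting interval of -0.72 to -0.63, and 21.8% of the tested genes had a gap at least as wide. IGF2BP3 went the other way, with 3210 and 4390 normalized counts, which is 1.37-fold higher in replicate 2 (0.45, interval 0.38 to 0.52). IGF2BP2 stood at 3566 and 3341 normalized counts, a difference of -0.09.

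LIN28A stood at 42768 and 34386 normalized counts, 1.24-fold higher in replicate 1. LIN28B stood at 2742 and 2428, 1.13-fold higher there. Both LIN28 genes therefore lay on the same side, on the 3 scalings tried, although their gaps were smaller than those of 51.1% and 70.8% of the tested genes. L1TD1 stood at 15181 and 17380 normalized counts, 1.14-fold higher in replicate 2, a direction that turned to -0.05 with quantile normalization. HMGA2, at 5584 and 5577 normalized counts, was nearly level. HMGA1, at 73176 and 75541, was 1.03-fold higher in replicate 2, and the direction turned with total reads (-0.06) and with quantile normalization (-0.30).

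The counting interval excluded equal levels for 7 of the 8 genes, HMGA2 being the exception, against 58.1% of the tested genes. These genes are deeply counted, with 2301 reads or more in each library, so small gaps pass this limit. It covers counting error only. Of the 4 listed fibroblast markers, TAGLN, COL1A1 and COL1A2 were higher in replicate 1, as were 5 of the 8 genes, IGF2BP1 and LIN28A among them. THY1 was 2.04-fold higher in replicate 2, and 3 of the 8 genes were higher there. The part of these markers in the gaps was not tested. In bulk RNA, fewer cells of a type and less RNA per cell cannot be told apart.

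**Figure D3:**
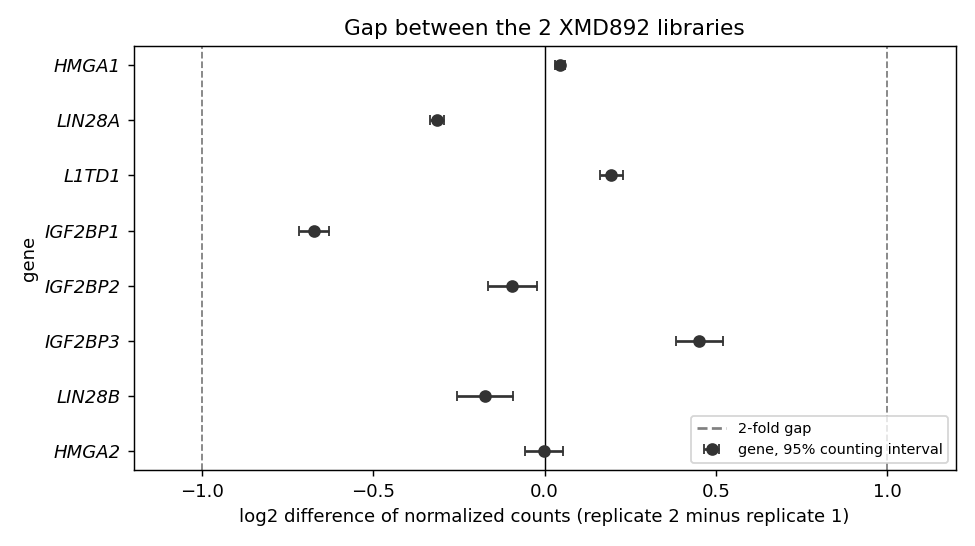
Log2 difference of normalized counts between the libraries (horizontal axis, replicate 2 minus replicate 1) for the 8 genes, with 95% counting intervals as bars and dashed lines at a 2-fold gap. IGF2BP1 lies farthest to the left at -0.67 and IGF2BP3 farthest to the right at 0.45, and no gene reaches a dashed line.

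Other genes of these pathways were followed through 8 lists, with 146 listed genes beyond the 8. Of the 141 that passed the minimum of 10, 5 were 2-fold or more higher in replicate 2 and 4 in replicate 1, together 6.38% against the 10.9% of all tested genes. These shares are not matched for abundance. Of the 1615 genes at or above LIN28B by normalized count, 1.8% differed by 2-fold. A gene in several lists is counted in each list below. Gaps of list genes are on normalized counts unless stated, and which genes pass 2-fold can change with the scale. The median log2 difference of all tested genes was 0.02, and 52.1% were higher in replicate 2.

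All 23 genes of let-7 processing and decay were listed, and the 20 with a length all reached 1 RPKM in both libraries, and their median was 12.5 RPKM. HNRNPA1, which binds let-7 precursors and has many pseudogenes, led at 485 and 638 RPKM. The splicing and processing factor KHSRP followed at 135 and 95.5 RPKM and the exonuclease XRN2 at 73.2 and 90.3 RPKM. The lowest was the argonaute AGO3 at 1.48 and 1.14 RPKM. None of the 23 differed by 2-fold, 16 were higher in replicate 1, and the median was -0.17. TRIM25 came near the limit at 1.98-fold on 2115 and 1084 reads. With total reads as the scale, 1 of the 23 was past 2-fold. The uridylyl transferases that work with LIN28A, listed as ZCCHC11 (TUT4) and ZCCHC6 (TUT7) and named here for that role, held 1315 and 1094 reads and 414 and 566 reads.

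Of 36 other known let-7 targets all were listed and 32 were at 1 RPKM or more in each library, the median being 14.6 RPKM. The cell cycle gene CCND1 led at 99.2 and 63.8 RPKM, with the let-7 pathway ubiquitin ligase TRIM71 at 92.02 and 61.9 RPKM. Of the 35 tested, 26 were higher in replicate 1, and the median was -0.16. Of all tested genes, 52.1% were higher in replicate 2. LIN28A, LIN28B, IGF2BP1 and IGF2BP2 were also higher in replicate 1. L1TD1 (0.20), IGF2BP3 (0.45) and HMGA1 (0.05) were higher in replicate 2, and HMGA2 was nearly level (-0.0018). Whether these targets follow LIN28A or LIN28B was not tested. Past 2-fold were the matrix protein THBS1, with 462 and 145 reads (3.24-fold higher in replicate 1), and the phosphatase DUSP9, with 55 and 121 reads (2.16-fold higher in replicate 2). PRDM1 was the lowest with 0 and 3 reads, and a count of 0 allows up to 3.

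Of the 20 partners of IGF2BP proteins and genes of m6A, the mRNA mark that IGF2BP proteins can read, all were listed. The 19 with a length were all at 1 RPKM or more in each library, and their median was 20.06 RPKM. The cold shock protein YBX1 led at 804 and 813 RPKM, followed by the poly(A)-binding protein PABPC1 at 372 and 277 RPKM and the helicase DHX9 at 97.2 and 85.6 RPKM. The m6A eraser FTO was the lowest at 2.15 and 2.07 RPKM. None of the 20 differed by 2-fold and the median was -0.05.

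The 16 known IGF2BP target transcripts were all listed, and 12 of the 15 with a length reached 1 RPKM in both libraries. Beta-actin, ACTB, led at 1574 and 1092 RPKM, with the glucose transporter SLC2A1 at 68.7 and 106 RPKM and beta-catenin, CTNNB1, at 43.4 and 47.9 RPKM. The adhesion receptor CD44 was 6.14-fold higher in replicate 1 on 169 and 28 reads. LYPD3, a membrane-anchored protein and the lowest of the list, was 3.17-fold higher in replicate 2 on 9 and 29 reads. The median of the 16 was -0.07, while IGF2BP1 stood at -0.67, IGF2BP2 at -0.09 and IGF2BP3 at 0.45. Whether these targets follow any of the IGF2BP genes was not tested.

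Of 28 other RNA-binding proteins of pluripotent and fetal cells 26 were listed, and DND1 and DDX4 were not. The splicing factor SRSF2 stood at 105.02 and 72.9 RPKM and RBPMS2 at 106 and 63.0 RPKM. Of the 24 tested, the germ cell genes DAZL (8.65-fold, 17 and 2 reads) and, in the other direction, YBX2 (2.07-fold, 135 and 284 reads) passed 2-fold, with the splicing factor MBNL2 2.77-fold higher in replicate 1 on 30 and 11 reads. DAZL was higher in replicate 1 and its ratio rests on very few reads. NANOS3 was the lowest with 2 reads in each library. The median of the 24 was -0.14.

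The other high mobility group and linker histone genes were mostly higher in replicate 2. All 12 were listed at 1 RPKM or more in each library, and their median of 104 RPKM lay between HMGA1 and HMGA2. HMGN2, a nucleosome-binding protein, led at 253 and 240.2 RPKM, with the linker histone H1FX at 112 and 176 RPKM and HMGB3 at 119 and 144 RPKM. HMGXB4 was the lowest at 8.88 and 10.99 RPKM. In replicate 2, 11 of the 12 were higher, with a median of 0.51, and the linker histone H1F0 was 2.08-fold higher on 1624 and 3441 reads. With total reads as the scale 10 of 12 were higher there, with a median of 0.41, and with quantile normalization 10 of 12, with a median of 0.46. HMGA1 and HMGA2 stood at 0.05 and at -0.0018 on the first of these scales. Whether they differ from that list was not tested.

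Among 24 partners and regulators of LIN28 and L1TD1, which include LIN28A and IGF2BP1 themselves, all were at 1 RPKM or more in each library, the median being 59.9 RPKM. POU5F1, which encodes OCT4, led at 734 and 1430 RPKM and was 2.09-fold higher in replicate 2, the only one of the 24 past 2-fold. YBX1 followed, then LIN28A. With total reads as the scale, and with quantile normalization, 0 of the 24 were past 2-fold. The histone deacetylase SIRT6 was the lowest at 8.60 and 9.34 RPKM. The median of the 24 was -0.07. Of 9 genes taken by name as let-7 hosts, without a check that each holds a let-7 locus, 4 were listed. HUWE1, the host of let-7f-2 and miR-98, led at 33.6 and 18.95 RPKM.

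**Figure D4:**
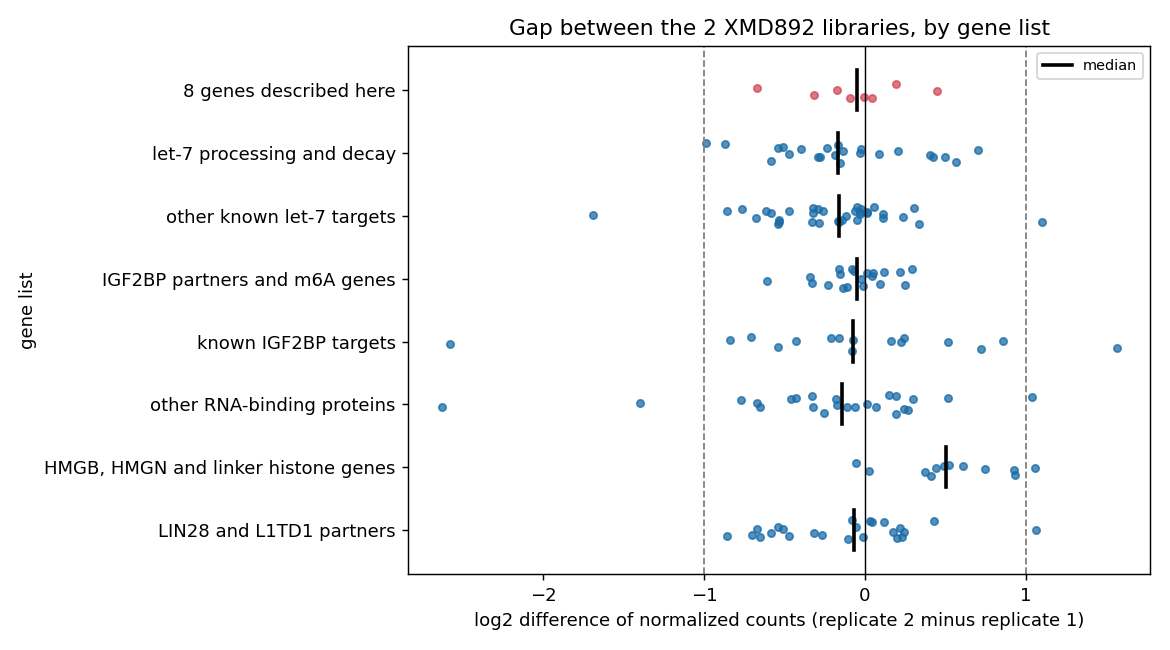
Log2 difference of normalized counts between the libraries (horizontal axis, replicate 2 minus replicate 1) for the 8 genes and for the tested genes of each list with at least 5 of them, 1 point per gene, with a bar at each median and dashed lines at a 2-fold gap. The high mobility group and linker histone list lies to the right with a median of 0.51, and the medians of the other lists lie between -0.17 and -0.05.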

How the data were processed

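RNA of the 2 XMD892 libraries was analysed from 1 table. The authors deposited a signal per gene, that is read counts after division by a size factor. This is read from the values, since 100% of each column were whole multiples of 1 step within 0.01 reads, and division by the step gave whole reads. Per the submitters' processing notes, Trimmomatic 0.36, STAR, featureCounts 1.5.3 and DESeq2 1.26.0 were used with build hg38, in roles that the notes leave out. Annotation, strand setting and any filter on genes: not given in the sources used here. In all, 7 columns matched no sample and were not used here, so the planned test of XMD892 against E8 was not run.

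RPKM used recovered reads and merged exon lengths of GENCODE release 29. Merged exons understate genes with long rare isoforms. Intervals are exact binomial (Clopper-Pearson) 95% intervals on recovered reads and cover counting error only, since the labels name no molecular identifiers. Means are ± SD over 2 libraries. The 8 genes and the lists were chosen with earlier results of these data known. From each list the 3 highest genes, the lowest, and those past 2-fold were named, except for items that are not reported here. Likeness of pattern needed at least 4 libraries and was not computed. Scripts ran in Python 3.11.15 with SciPy 1.17.1 and were tested on simulated data.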

Additional observations from a re-analysis of the deposited data

How the results depend on the processing

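No paired analysis was possible because the E8 libraries were not analysed here, and with them the test of XMD892 against E8 and all its alternatives were not run. The levels rest on length: with the longest coding transcript, IGF2BP2 stood at 45.5, IGF2BP3 at 43.2, HMGA1 at 1672 and HMGA2 at 33.5 RPKM. With the authors' size factors as the scale, L1TD1 stood at 218, HMGA1 at 1649 and HMGA2 at 18.7 RPKM. The other levels under these settings, and all levels with either library left out, moved by less than 1 SD, which with 2 libraries they must when one is left out. Total reads as the scale moved the median log2 difference of all genes from 0.02 to -0.08, and gave -0.42 for LIN28A, -0.28 for LIN28B, 0.094 for L1TD1, -0.77 for IGF2BP1, -0.20 for IGF2BP2, 0.35 for IGF2BP3, -0.055 for HMGA1 and -0.10 for HMGA2. Quantile normalization gave -0.54 for LIN28A, -0.050 for L1TD1, -0.79 for IGF2BP1 and -0.30 for HMGA1. A pseudocount of 5 moved none of the 8 beyond its counting interval, and no setting brought any of the 8 past 2-fold. Over all genes, 1761 gaps of at least 2-fold became 711 with a minimum of 50, where fewer genes are tested, and 3350 with no minimum, where more are. Counting the 6-letter match of bases 2 to 7 in the longest 3′ UTRs gave 17 matches, and the transcript with the longest coding sequence gave 9. Depth does not limit the 8 genes, but ratios of list genes with few reads are imprecise.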
